A study of Mus musculus with 12 samples.

Results

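The 10 genes described here are the core of the liver's circadian clock and its immediate outputs: Arntl, Clock, Per1, Per2, Per3, Nr1d1, Nr1d2, Nfil3, Dbp and Tef. They were chosen by symbol, as genes whose levels set 1 pair of water arrays apart, so the levels on those arrays are given as a description with no test. They are 10 of 12393 genes with a probe set of a single symbol, and 18 of 22626 probe sets on the array carry their names. Affymetrix 3′ arrays were hybridised with RNA of isolated liver cells of male C57BL/6N mice aged 12 weeks. The 4 groups of 3 arrays were hepatocytes of mice given phenobarbital, hepatocytes of mice given water, mesenchymal cells of mice given phenobarbital and mesenchymal cells of mice given water. Phenobarbital, a barbiturate that induces hepatic drug metabolism, was given in the drinking water at 50 mg/kg per day for 14 days, and the controls drank tap water for the same time. The controls are described as time-matched, and the sources used here do not give the hour of collection. The labels do not say how many animals stood behind an array, so p-values cover only how far these samples scatter, and 3 arrays a group limit the precision.

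The circadian clock is a transcriptional feedback loop that runs in nearly every cell, with a period of about a day. The proteins of Arntl (also called Bmal1) and Clock form a dimer that binds E-boxes and activates Per, Cry, Nr1d, Dbp and Tef genes, and PER and CRY proteins then inhibit the dimer. The REV-ERB receptors encoded by Nr1d1 and Nr1d2 repress Arntl and Nfil3 through ROR elements. DBP and TEF activate, and NFIL3 represses, genes with D-boxes, among them genes of hepatic drug and lipid metabolism. In mouse liver Arntl and Nfil3 transcripts are high at the time of day when those of Dbp and Nr1d1 are low.

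Because the members are tied to each other by these elements, their promoters were searched for E-boxes (CACGTG), D-boxes (TTATGTAA or TTACGTAA) and ROR elements (TAGGTCA or TGGGTCA) on both strands. The windows, from RefSeq on GRCm38.p6, ran from 250 bases before to 50 after a start site, and 14 windows of 9 members were matched. An E-box stood in 3 member windows of 2 genes, against 7.15% of all 32851 windows, a D-box in 1, against 1.06%, and a ROR element in 2, against 6.45%. The 5 windows below show the elements of the loop within the members, 1 window a gene, 5′ to 3′ on the strand of the gene, with the matched letters in capitals. Arntl (chr7:113207261-113207560, plus strand) and Nfil3 (chr13:52980990-52981289, minus strand) hold a ROR element, read on the opposite strand in Nfil3. Per3 (chr4:151044616-151044915, minus strand) holds 2 D-boxes, while Per1 (chr11:69098699-69098998, plus strand) and Tef (chr15:81802423-81802722, plus strand) hold an E-box.
Arntl: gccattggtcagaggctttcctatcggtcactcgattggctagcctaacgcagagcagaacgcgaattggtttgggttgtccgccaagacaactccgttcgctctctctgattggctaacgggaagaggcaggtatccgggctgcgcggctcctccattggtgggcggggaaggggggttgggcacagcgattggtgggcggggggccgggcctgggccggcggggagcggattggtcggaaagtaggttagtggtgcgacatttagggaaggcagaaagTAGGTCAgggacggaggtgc
Nfil3: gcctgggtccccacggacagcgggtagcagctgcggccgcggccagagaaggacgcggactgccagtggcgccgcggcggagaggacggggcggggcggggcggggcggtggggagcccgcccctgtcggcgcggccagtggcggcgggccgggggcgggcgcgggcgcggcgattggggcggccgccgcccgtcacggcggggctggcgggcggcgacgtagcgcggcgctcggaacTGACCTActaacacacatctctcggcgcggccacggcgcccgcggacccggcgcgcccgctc
Per3: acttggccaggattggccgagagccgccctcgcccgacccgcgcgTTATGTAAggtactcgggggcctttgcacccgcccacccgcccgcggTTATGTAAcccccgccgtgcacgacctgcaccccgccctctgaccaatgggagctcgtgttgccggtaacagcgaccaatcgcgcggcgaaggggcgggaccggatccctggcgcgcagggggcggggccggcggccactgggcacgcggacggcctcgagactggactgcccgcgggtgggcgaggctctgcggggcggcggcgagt
Per1: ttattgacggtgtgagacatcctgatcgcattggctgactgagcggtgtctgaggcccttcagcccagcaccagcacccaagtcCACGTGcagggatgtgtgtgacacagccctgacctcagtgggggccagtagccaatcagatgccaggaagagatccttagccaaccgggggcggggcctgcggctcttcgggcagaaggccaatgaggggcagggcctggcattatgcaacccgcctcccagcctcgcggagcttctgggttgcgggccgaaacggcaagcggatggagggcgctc
Tef: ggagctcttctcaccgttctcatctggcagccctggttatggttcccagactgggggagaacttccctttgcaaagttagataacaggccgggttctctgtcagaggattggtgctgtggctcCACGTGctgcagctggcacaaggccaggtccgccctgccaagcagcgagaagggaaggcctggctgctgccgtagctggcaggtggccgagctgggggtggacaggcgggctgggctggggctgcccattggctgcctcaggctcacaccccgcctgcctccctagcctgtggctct
The ROR element of Arntl starts at base 31, with the start site as base 1, and that of Nfil3 starts 12 bases before the start site. In Per3 the D-boxes start 205 and 158 bases before it, and the E-boxes of Per1 and Tef start 166 and 127 bases before it. The windows of Clock, Dbp, Nr1d1 and Nr1d2 held none of these letters, which says nothing of elements outside them.

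The labels were first set against genes that mark the cells and the drug. Cyp2b10, the classic P450 target of phenobarbital in mouse liver, was higher in phenobarbital hepatocytes by 5.52 on the log2 scale (SE 0.30, limma adjusted p = 0.00123). All 8 hepatocyte markers were lower in mesenchymal cells than in hepatocytes of both treatments, and all 8 Kupffer cell and 7 sinusoidal endothelial markers were higher. Of 8 stellate cell and fibroblast markers 6 could be tested between the populations and 5 were called higher in mesenchymal cells. So were 4 of 5 T and NK cell markers, all 3 neutrophil markers tested and the 1 B cell marker tested, in both treatments. Most genes differ between the populations: 83.1% of all genes were called in phenobarbital mice and 82.7% in water mice, about 42% as higher in mesenchymal cells. Markers of macrophages and endothelium, and of T and NK cells and neutrophils, were thus higher in the fraction labelled mesenchymal cells than in hepatocytes. In such bulk samples fewer cells of a type and less RNA per cell cannot be told apart. The hepatocyte markers also varied within the mesenchymal arrays, with means from 10.03 to 11.52 on the phenobarbital arrays and from 9.58 to 10.64 on the water arrays.

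Levels below are log2 values of a gene's brightest probe set on average, normalized by the authors with RMA, so that a step of 1 is a factor of 2 and levels of different probe sets are not compared. All 10 members lay outside the range of the other arrays on the water arrays numbered 1, in hepatocytes and in mesenchymal cells alike. On both arrays Arntl, Clock and Nfil3 lay above, and Dbp, Tef, Per1, Per2, Per3, Nr1d1 and Nr1d2 below, the other 5 arrays of the population. A position outside the other 5 arrays was itself common, with 46.4% of all 9031 genes for hepatocyte water array 1 and 53.1% for mesenchymal water array 1. The size was not: 9 members in hepatocytes and 8 in mesenchymal cells lay at least 1 from the median of the other 5 arrays, against 1.78% and 1.75% of all genes. Because the members were chosen for this difference, these shares are a description.

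**Figure D1:**
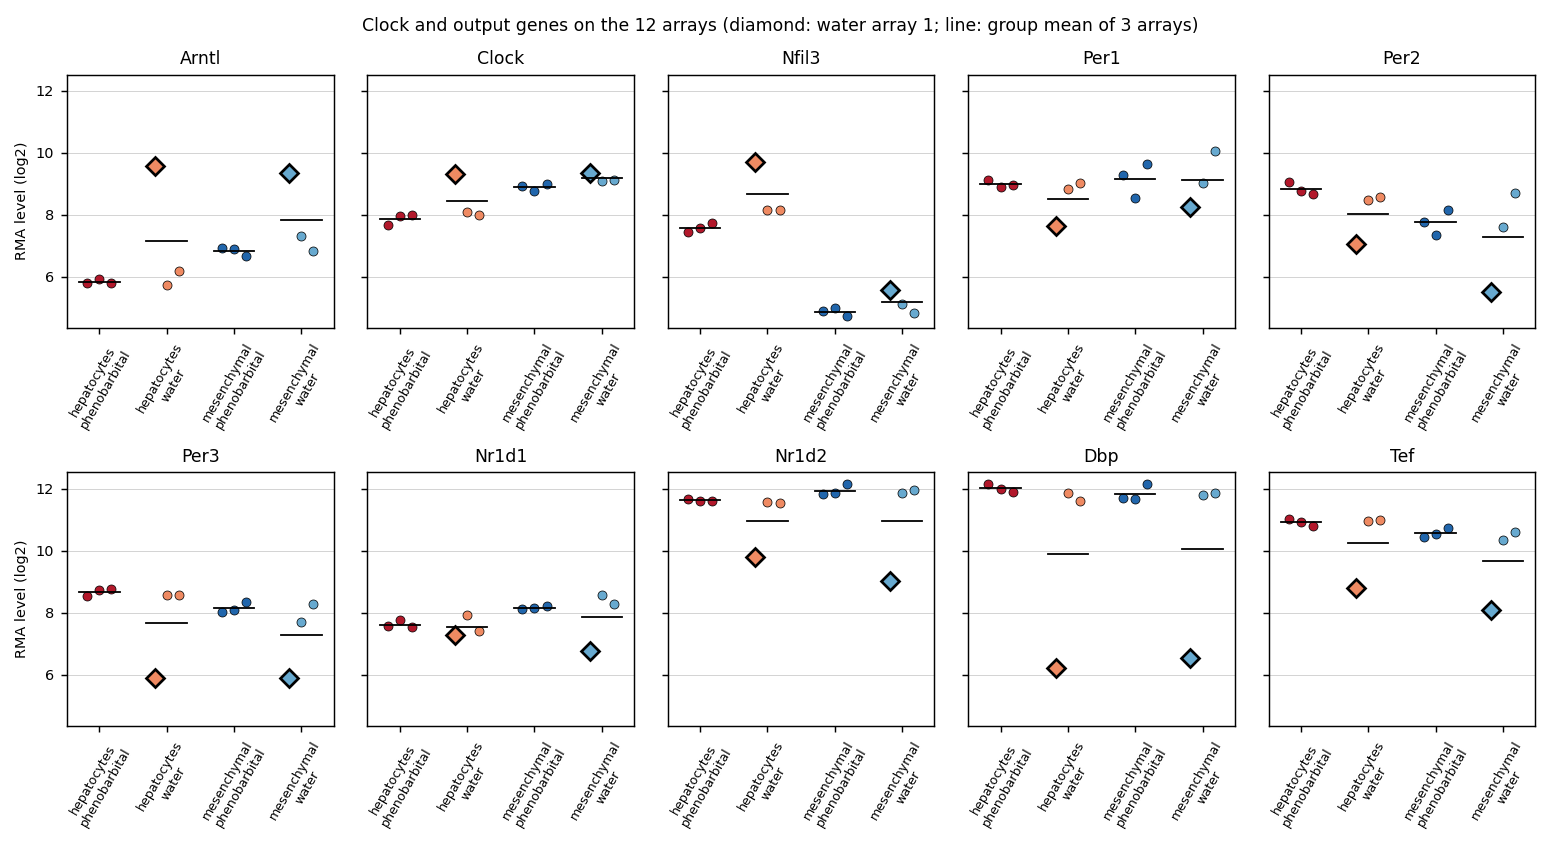
RMA log2 level (vertical axis) of the 10 genes on each of the 12 arrays, in 4 groups of 3 with the group mean as a line; diamonds mark water array 1. For Dbp the diamonds sit at 6.21 in hepatocytes and 6.52 in mesenchymal cells, with all other arrays at 11.60 or above.

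Arntl encodes the activator on which the loop depends. In hepatocytes it was at 5.81, 5.92 and 5.80 on the phenobarbital arrays and at 9.57, 5.73 and 6.20 on the water arrays. In mesenchymal cells it was at 6.94, 6.90 and 6.68 on the phenobarbital arrays and at 9.36, 7.31 and 6.84 on the water arrays. Water array 1 was thus highest in both populations, 3.76 above the median of the other hepatocyte arrays and 2.46 (5.51-fold) above that of the other mesenchymal arrays. The other 5 hepatocyte arrays lay below the filter on low values, the 40th percentile of each array, so Arntl was measured there only near the dim end. Set against the highest of those filter values, 6.60, it was at least 7.86-fold higher on hepatocyte water array 1. Clock, the dimer partner of Arntl, moved the same way by less. In hepatocytes its levels were 7.67, 7.95 and 7.99 with phenobarbital and 9.31, 8.08 and 7.98 with water, and water array 1 lay 1.33 above the median of the others. In mesenchymal cells they were 8.92, 8.78 and 9.0 with phenobarbital and 9.34, 9.09 and 9.12 with water, where water array 1 lay 0.34 above that median. The second Clock probe set also had its highest value on water array 1, above the median of the others by 1.16 in hepatocytes and 0.23 in mesenchymal cells.

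Nfil3, the repressor at D-boxes, was the other gene that was high on these arrays. In hepatocytes its levels were 7.45, 7.56 and 7.73 with phenobarbital and 9.71, 8.15 and 8.15 with water. Here all water arrays lay above all phenobarbital arrays, and water array 1 was 1.98 above the median of the others. In mesenchymal cells Nfil3 stayed at the dim end, at 4.90, 4.99 and 4.72 with phenobarbital and 5.58, 5.12 and 4.84 with water. No mesenchymal array passed the filter, and the step of 0.68 on water array 1 is a step between dim values.

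Dbp, the clock's best-known output factor in liver, had the widest shift of the 10. In hepatocytes it was at 12.15, 11.99 and 11.89 with phenobarbital and at 6.21, 11.87 and 11.60 with water. In mesenchymal cells it was at 11.69, 11.65 and 12.15 with phenobarbital and at 6.52, 11.80 and 11.86 with water. Water array 1 was 5.69 and 5.29 below the median of the other arrays of the 2 populations, while those other arrays spanned 0.55 and 0.51. Both low values lay under the filter values of their arrays, 6.58 and 6.64, against which this probe set was at least 39.8-fold and 35.8-fold lower. Its range over the 6 arrays, 5.94 in hepatocytes and 5.64 in mesenchymal cells, ranked 2 and 1 among 9031 genes. The second Dbp probe set was lower on water array 1 by 4.60 (24.3-fold) in hepatocytes, so the fold there depends on the probe set. In mesenchymal cells it was lower by 4.95, at a value of 6.10 under the filter value, and thus at least 21.2-fold lower. Tef, a D-box activator related to Dbp, had 11.02, 10.93 and 10.80 with phenobarbital and 8.78, 10.94 and 11.00 with water in hepatocytes. Its mesenchymal levels were 10.43, 10.52 and 10.74 with phenobarbital and 8.07, 10.34 and 10.60 with water. The array that stood apart was again water array 1, by 2.16 (4.46-fold) in hepatocytes and 2.45 (5.46-fold) in mesenchymal cells. The other Tef probe sets were lower there by 1.35 and 1.67 in hepatocytes and by 0.75 and 1.30 in mesenchymal cells.

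The Period genes encode the inhibitors of the ARNTL and CLOCK dimer. Per3 had hepatocyte levels of 8.54, 8.73 and 8.76 with phenobarbital and 5.89, 8.55 and 8.57 with water. In mesenchymal cells it had 8.01, 8.08 and 8.34 with phenobarbital and 5.90, 7.70 and 8.26 with water. It had the widest shift of the 3 Period genes in hepatocytes, 2.68 below the median of the others, and 2.18 in mesenchymal cells. These low values too lay under the filter, so that the fold of this probe set was at least 3.98 and at least 2.71. Its other probe sets were dimmer and lower on water array 1 by 0.74 and 0.99 in hepatocytes and 0.15 and 0.66 in mesenchymal cells: 1 of them lay within the range of the other mesenchymal arrays, the only probe set of the 18 on either water array 1 that did so. Per2 had hepatocyte levels of 9.06, 8.78 and 8.67 with phenobarbital and 7.07, 8.46 and 8.56 with water, so that all phenobarbital arrays of this probe set lay above all water arrays. In mesenchymal cells Per2 had 7.78, 7.33 and 8.15 with phenobarbital and 5.51, 7.61 and 8.70 with water. Water array 1 was lower than the median of the other arrays by 1.61 in hepatocytes and 2.27 in mesenchymal cells, where it lay under the filter. The second Per2 probe set was lower there by 0.64 and 0.95, and its groups overlapped in hepatocytes, at 7.89, 7.76 and 7.36 with phenobarbital and 6.93, 7.35 and 7.57 with water.

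Per1, which besides the clock is an immediate-early gene that responds to glucocorticoids and cAMP, had the smallest shift of the 3 in both populations by the brightest probe sets. The dimmer probe sets of Per2 and Per3 shifted by less than Per1. The hepatocyte levels of Per1 were 9.11, 8.89 and 8.95 with phenobarbital and 7.63, 8.83 and 9.02 with water. In mesenchymal cells they were 9.27, 8.54 and 9.65 with phenobarbital and 8.24, 9.03 and 10.07 with water. Water array 1 was lower than the median of the others by 1.32 in hepatocytes and 1.03 in mesenchymal cells. Per1 and Per2 were also the members that varied most among the other mesenchymal arrays. Without water array 1 they spanned 1.53 and 1.37, against a median of 0.28 over all genes, and both ran in the same order: lowest on phenobarbital array 2, then water array 2, phenobarbital array 1, phenobarbital array 3 and water array 3. This holds for the brightest Per2 probe set. The second spanned 0.60 there and ran in another order, lowest on water array 2 and again highest on water array 3. The other 8 members spanned 0.33 to 0.64 on these 5 arrays. In hepatocytes all 10 members spanned 0.12 to 0.70 without water array 1.

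The REV-ERB genes differed from each other. Nr1d2 had 11.65, 11.61 and 11.59 with phenobarbital and 9.79, 11.58 and 11.53 with water in hepatocytes. Its mesenchymal levels were 11.81, 11.85 and 12.14 with phenobarbital and 9.01, 11.86 and 11.95 with water. The 5 other hepatocyte arrays agreed within 0.12, the narrowest span of any member, and water array 1 lay 1.80 (3.48-fold) below their median, and 2.85 (7.22-fold) below it in mesenchymal cells. Nr1d1 had 7.57, 7.75 and 7.52 with phenobarbital and 7.28, 7.91 and 7.41 with water in hepatocytes. In mesenchymal cells it had 8.12, 8.15 and 8.20 with phenobarbital and 6.77, 8.55 and 8.26 with water. The hepatocyte value on water array 1 was only 0.13 under the next array and 0.29 under the median of the others, less than the 0.50 that those spanned, while the mesenchymal value was 1.44 (2.71-fold) under their median. Nr1d1 was therefore the member with no wide shift in hepatocytes, and Clock and Nfil3 were those with no shift of 1 in mesenchymal cells.

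**Figure D2:**
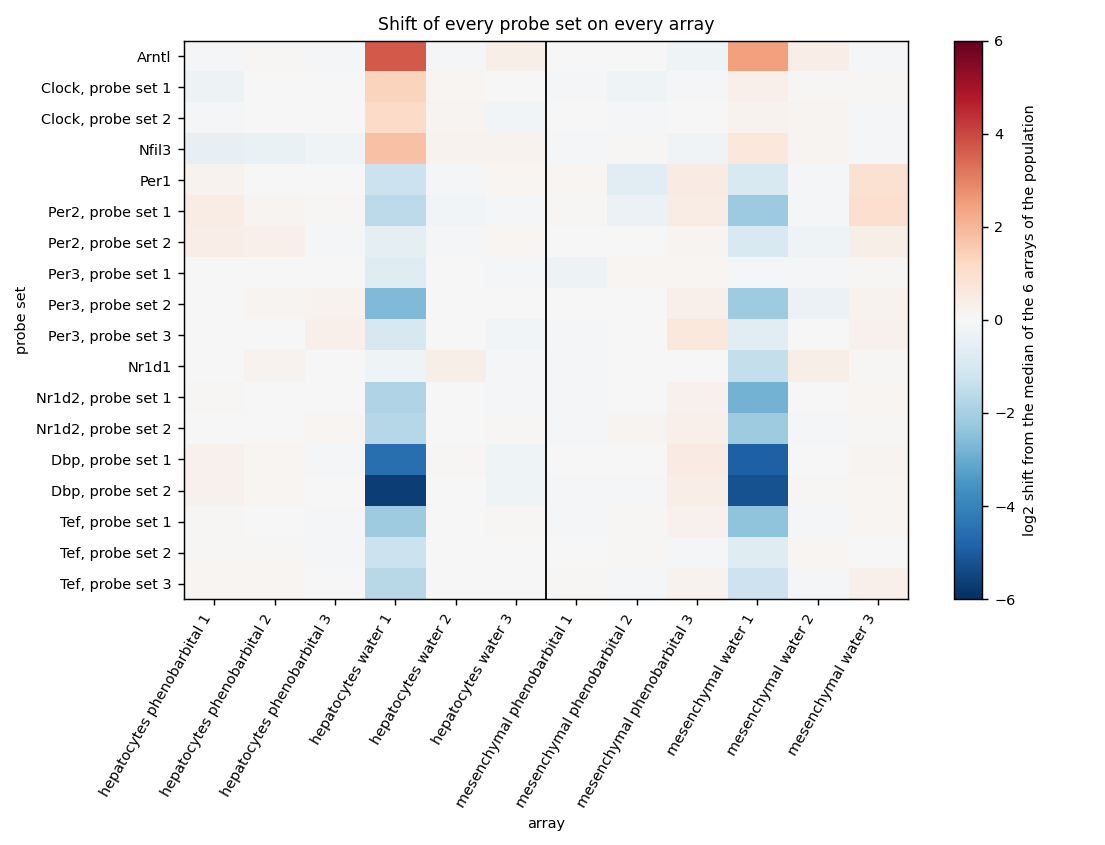
Shift of all 18 probe sets (rows) on the 12 arrays (columns) from the median of the 6 arrays of the population, on a log2 colour scale with blue lower and red higher. The columns of water 1 carry nearly all colour; the only other gene-level shift past 1 is Per2 on mesenchymal water array 3, at 1.01.

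Water array 1 was apart in other genes as well, but few of them were shared by the 2 populations. Of 9031 genes, 17 lay more than 1 from the median of the 6 arrays of the population in the same direction on water array 1 of both populations, and 6 of the 17 were members: Dbp, Tef, Per2, Per3 and Nr1d2 lower and Arntl higher. No gene lay more than 1 away in opposite directions. Other pairs of arrays with 1 number shared fewer such genes and no member, with 6, 1 and 0 for phenobarbital arrays 1, 2 and 3, and 2 and 0 for water arrays 2 and 3. On its own, hepatocyte water array 1 had 130 genes more than 1 away, 9 of them members, and mesenchymal water array 1 had 109, 7 of them members. Mesenchymal phenobarbital array 1 had 182 such genes and none of them was a member, the widest member shift being −0.13 for Clock.

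**Figure D3:**
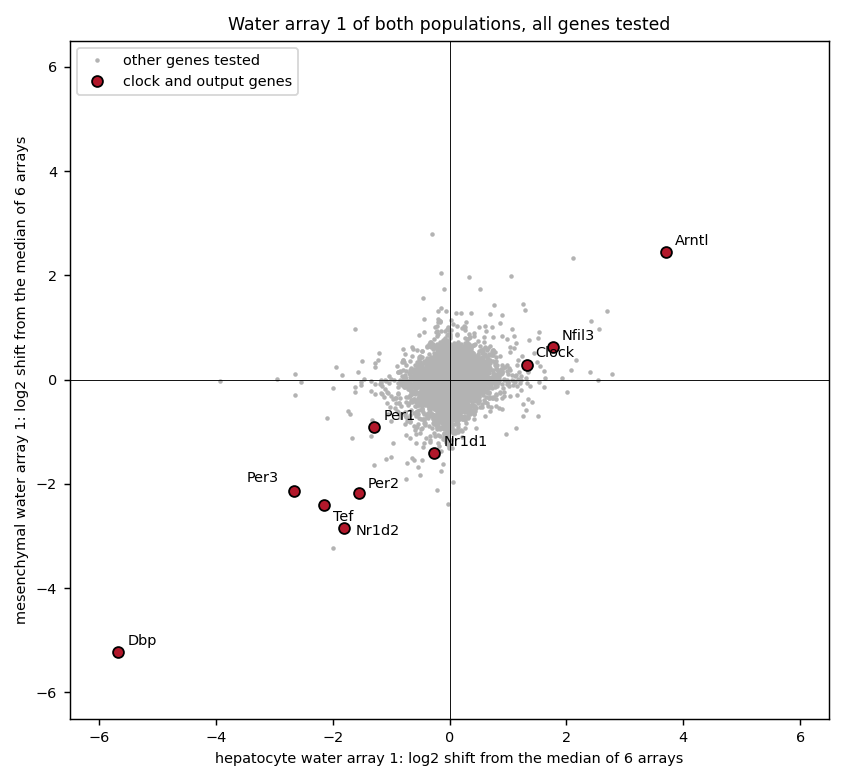
Each of 9031 genes by its log2 shift on hepatocyte water array 1 (horizontal) and on mesenchymal water array 1 (vertical), both from the median of 6 arrays. Clock and output genes are marked: Dbp lies far from all others at lower left and Arntl at upper right, and Nr1d1, Clock and Nfil3 are shifted mainly on 1 axis.

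Early stress genes were also higher on water array 1. For the counts below, 1.78% of all genes lay at least 1 from the median of the others on hepatocyte water array 1. On mesenchymal water array 1 it was 1.75%. The mean of 8 genes that respond to cell dissociation, such as Fos, Jun and Atf3, was 11.83 on mesenchymal water array 1, against 10.28 to 10.68 on the other mesenchymal arrays, and 7 of the 8 were higher there by at least 1. On hepatocyte water array 1 it was 10.71, against 9.62 to 10.46 on the other hepatocyte arrays, and 2 of the 8 were higher by at least 1. Of 8 hepatocyte markers 4 were lower by at least 1 on mesenchymal water array 1, where their mean was 9.58, against 10.03 to 11.52 on the other mesenchymal arrays, and none on hepatocyte water array 1. On mesenchymal water array 1, 2 of 5 T and NK cell markers were higher by at least 1 and 1 of 8 stellate cell and fibroblast markers, Reln, was lower by 1.33. The neutrophil markers S100a8 and S100a9, at 9.53 and 9.98, were above the median but within the range of the other mesenchymal arrays, and the mean of the 3 neutrophil markers was 9.41, against 10.47 on the highest phenobarbital array. No Kupffer cell or endothelial marker moved by 1 on either array. The part of these differences in the levels of the clock genes was not tested.

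Other genes of the pathway were followed on the same arrays. The list of clock partners, which held Cry1 and Cry2, the RORs, the Bhlhe40 family, kinases and Hlf, had 11 measured genes of 15. On hepatocyte water array 1 the shift from the median of the other arrays reached 1 for 2 of them, both lower. Over all genes it did so for 1.78% there and for 1.75% on mesenchymal water array 1. Bhlhe40, a repressor at E-boxes, was at 9.63, against 10.47 to 11.26 on the other hepatocyte arrays, and Cry2, a partner of the PER proteins, was at 7.62, against 8.47 to 9.01. On mesenchymal water array 1 the only one was Hlf, the relative of Dbp and Tef, at 5.69, against 6.84 to 7.83. That low value lay under the filter value of its array, 6.64. Cry1 was higher on hepatocyte water array 1, at 8.02, against 6.95 to 7.14, and below all others in mesenchymal cells, at 6.41, against 6.51 to 7.15.

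Genes known as rhythmic outputs in liver made up a second list. Of 12 measured outputs, 9 had a shift of at least 1 on hepatocyte water array 1 (7 lower, 2 higher) and 3 on mesenchymal water array 1 (2 lower, 1 higher). The shares of all genes were 1.78% and 1.75%. Among the 7, Cyp7a1, at 8.64, lay within the range of the other hepatocyte arrays, 7.72 to 10.64. Rgs16, a regulator of G protein signalling, was at 7.59 on hepatocyte water array 1, against 11.25 to 12.17 on the others. Usp2, a ubiquitin protease, was at 7.79, against 10.52 to 10.96. Both lay within the range of the others on mesenchymal water array 1, with Rgs16 at 7.43, against 7.39 to 7.99, and Usp2 at 8.14, against 7.62 to 8.40. Elovl3, a fatty acid elongase, was higher on water array 1 of both populations, at 13.07 in hepatocytes, against 9.84 to 10.61, and at 6.95 in mesenchymal cells, against 4.84 to 6.00. Those other mesenchymal values lay under the filter, so the step there is one from dim values. Gys2, liver glycogen synthase, was lower in both, at 10.30 in hepatocytes, against 11.47 to 12.04, and at 4.32 in mesenchymal cells, against 5.77 to 7.60. All mesenchymal values of Gys2 but that of phenobarbital array 1 lay under the filter, so this step too is one between mostly dim values. On mesenchymal water array 1 the hepatocyte marker mean was also lowest (9.58, against 10.03 to 11.52), and the part of hepatocyte RNA in the Gys2 value was not tested. Noct, a phosphatase with a night peak in mouse liver, and Wee1, a cell cycle kinase, were picked after their values were seen. Noct was at 8.04 on hepatocyte water array 1, against 10.16 to 10.99, and Wee1 at 6.89, against 8.87 to 9.63. On mesenchymal water array 1 Noct lay within the range, at 7.85, against 7.69 to 8.07. Wee1 was below it there, at 6.60, against 7.11 to 7.68. Whether the outputs differ between the populations in this was not tested.

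Other genes with the highest and lowest Pearson correlation with Dbp and with Arntl were then named, on levels centred on the population means over the 12 arrays. Highest with Dbp were Marveld1 (0.984), Casp6, Rabgap1l, Ctdsp2 and Slc2a9, and lowest were Spcs2 (−0.978), Sdf2l1, Ube2j1, P4ha1 and Poglut1. Arntl had the same pattern turned round, with Sdf2l1 (0.962) and Spcs2 highest and Marveld1 (−0.977) and Rabgap1l lowest. Marveld1 was at 9.51 on hepatocyte water array 1, against 10.34 to 10.48 on the others, and at 9.90 on mesenchymal water array 1, against 10.50 to 10.71. Sdf2l1, a chaperone component of the endoplasmic reticulum, was at 10.91 in hepatocytes, against 9.40 to 9.82, and at 10.47 in mesenchymal cells, against 9.46 to 9.64. The likeness rests mainly on those arrays. Over the 10 arrays without them Marveld1 had 0.61 with Dbp and −0.49 with Arntl, and among members Dbp with Arntl had −0.58 in place of −0.98, while Dbp kept 0.87 with Nr1d2 in place of 0.96.

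The first comparison asked whether phenobarbital moved the clock genes in hepatocytes. None of 9 tested members passed in limma at an adjusted p under 0.05, against 0.0493% of 8117 genes called, and the lowest adjusted p was 0.543. At an unadjusted p under 0.05 it was 1 member, Nfil3, and 680 genes. Differences are phenobarbital minus water, in log2 steps, with n = 3 each. Nfil3 averaged 7.58 with phenobarbital and 8.67 with water, a difference of −1.09 (SE 0.39). Dbp averaged 12.01 with phenobarbital and 9.89 with water, a difference of 2.12 whose SE of 1.34 reflects the single low array (limma adjusted p = 0.695). The other differences were 1.0 for Per3, 0.81 for Per2, 0.68 for Tef, 0.65 for Nr1d2, 0.49 for Per1, 0.08 for Nr1d1 and −0.59 for Clock. The median of the 9 was 0.65, against −0.004 over all genes. Arntl passed the filter on 1 array of the 6 and was not tested.

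Without hepatocyte water array 1 these differences shrank: the median of the 9 members was 0.06, again none passed, against 0.0622% of all genes, and 3 had an unadjusted p under 0.05. Dbp then differed by 0.28 (SE 0.11), Per2 by 0.33 (SE 0.13) and Nfil3 by −0.57 (SE 0.11, limma adjusted p = 0.289). On the arrays themselves, with 1 probe set per gene, 4 of the 9 members did not overlap between the groups, against 15.1% of all genes: Dbp, Per2 and Nr1d2 were higher on every phenobarbital array and Nfil3 was lower. The same 4 did not overlap once water array 1 was left out, against 25.8% of all genes. For Dbp the lowest phenobarbital array, at 11.89, was then close to the highest water array, at 11.87. The second probe sets of Dbp and Nr1d2 overlapped between the groups, with or without water array 1. Their lowest phenobarbital values were 11.15 and 8.58, and their highest water values 11.28 and 8.64. That of Per2 overlapped as well, and Nfil3 had only 1 probe set.

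In mesenchymal cells none of the 9 tested members passed, and 0% of 8003 genes did, with 232 genes at an unadjusted p under 0.05 in limma. Clock, at 8.90 with phenobarbital and 9.18 with water, differed by −0.28 (SE 0.10) and was the only member with such an unadjusted p (0.0265) and the only one whose arrays did not overlap, against 7.70% of all genes. The second Clock probe set differed by −0.14 (SE 0.11), and its groups overlapped with or without water array 1. With the mean of the probe sets the unadjusted limma p of Clock was 0.0541. The widest differences carried wide errors: 1.77 for Dbp (SE 1.39), −1.0 for Arntl (SE 0.61), 0.99 for Nr1d2 (SE 0.76), 0.89 for Tef (SE 0.64) and 0.86 for Per3 (SE 0.57). Per2 differed by 0.48, Nr1d1 by 0.30 and Per1 by 0.04, all with an SE larger than the value. Without mesenchymal water array 1 the difference was −0.00 for Dbp (SE 0.16), 0.03 for Nr1d2 (SE 0.11) and −0.24 for Arntl (SE 0.17). Per1 and Per2 were then at −0.40 each (SE 0.42 and 0.38), and Clock and Nr1d1 did not overlap between the groups, both lower with phenobarbital, against 18.6% of all genes. Of 8 hepatocyte markers 7 had positive differences here (median 0.42, 0 called), and their part in the values of the clock genes was not tested.

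The phenobarbital effect in hepatocytes was then set against that in mesenchymal cells, in 1 fit of 12 arrays. None of the 10 members passed, with 0% of 9031 genes called, and limma adjusted p-values of the members ran from 0.93 to 0.987. The difference of effects was −0.78 for Nfil3 (SE 0.50) and 0.35 for Dbp (SE 2.18). At an unadjusted p under 0.05 there were 492 genes and 0 members. Among clock partners and outputs 0 genes were called with phenobarbital in hepatocytes (7 and 12 tested) or mesenchymal cells (9 and 9 tested).

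**Figure D4:**
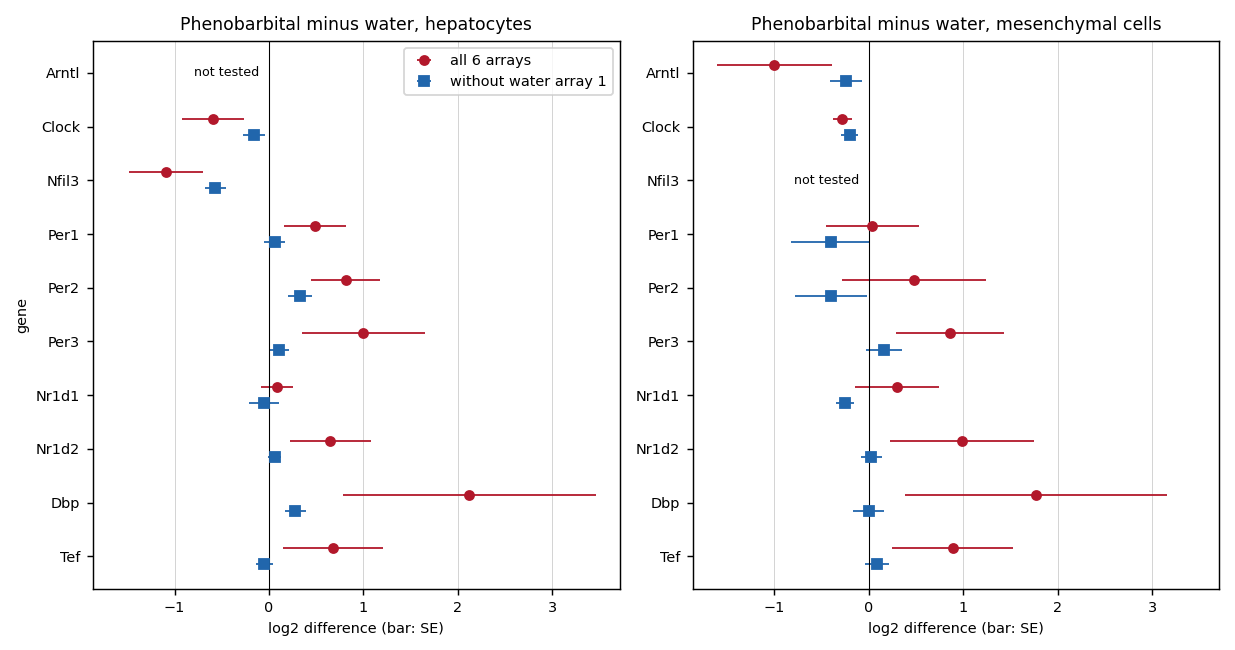
Phenobarbital minus water log2 difference (horizontal, bars ± SE) of each gene, in hepatocytes (left) and mesenchymal cells (right), with all 6 arrays (circles) and without water array 1 (squares). Dbp goes to 0.28 and −0.00 without that array, and Nfil3 in hepatocytes keeps −0.57.

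The clock genes were last compared between mesenchymal cells and hepatocytes, where most genes differ. In phenobarbital mice, in the fit of all 12 arrays, 2 of 10 members passed in limma, against 83.1% of 9031 genes. Clock was higher in mesenchymal cells by 1.03 (SE 0.28, adjusted p = 0.00447), at 8.90 in mesenchymal cells and 7.87 in hepatocytes, and Nfil3 was lower by 2.71 on the log2 scale (adjusted p = 2e-05), at 4.87 in mesenchymal cells and 7.58 in hepatocytes. This fit pools the spread of all groups, and water array 1 widened it for these genes. With the 6 phenobarbital arrays alone, a fit added after the data were seen, 8 of 10 members passed, against 83% of 8757 genes. Fitted so, Arntl (0.99, SE 0.11), Nr1d1 (0.55, SE 0.09) and Nr1d2 (0.32, SE 0.10) were higher in mesenchymal cells besides Clock. Per2 (−1.08, SE 0.21), Per3 (−0.53, SE 0.12) and Tef (−0.35, SE 0.10) were lower besides Nfil3. Adjusted p-values of these 8 ran from 9.5e-07 for Nfil3 to 0.0183 for Nr1d2. Dbp (−0.18, SE 0.15) and Per1 (0.16, SE 0.26) did not pass, with adjusted p-values of 0.282 and 0.566. The same 8 members had arrays that did not overlap between the populations, against 85.7% of all genes.

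The scale matters for the smaller of these differences. Centring each array on its median moved the mesenchymal side by −0.23 relative to hepatocytes for all genes. On that scale 8 members again passed on the 6 phenobarbital arrays, against 83.6% of all genes. Nr1d2 was at 0.09 and did not pass (limma adjusted p = 0.457), Dbp was at −0.41 and passed (0.0354), and Per1 was at −0.07. Arntl, Clock and Nr1d1 were still called higher, and Tef, Per2, Per3 and Nfil3 lower. Probe sets also disagreed for Clock: the second one differed by 0.02 in phenobarbital mice and −0.28 in water mice, and with the mean of the probe sets Clock did not pass in either (limma adjusted p = 0.0829 and 0.446). The second Tef probe set had −0.07 in phenobarbital mice and 0.17 in water mice, against −0.35 and −0.57 for the first. The mesenchymal level of Nfil3 and the hepatocyte level of Arntl lie below the filter, so these differences rest on a dim value on 1 side.

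In water mice 2 of 10 members passed in limma, against 82.7% of all genes: Clock (0.73, SE 0.28, adjusted p = 0.0292) and Nfil3 (−3.49, SE 0.35, adjusted p = 2.22e-06). Clock lost its call without mesenchymal water array 1 or 3 (0.65 and 0.76) or hepatocyte water array 2 or 3 (0.54 and 0.49), with limma adjusted p-values from 0.0507 to 0.128. The labels do not say whether arrays of 1 number share animals. With such a pairing assumed and the replicate number as a block, 4 of 10 passed, against 82.4% of all genes. Tef was added by the block at −0.57 (SE 0.11, adjusted p = 0.00244), and Per1 at 0.62 (SE 0.22, adjusted p = 0.0306). Without water array 1 of both populations 7 of 10 passed, against 81.3% of all genes. Arntl (1.11), Clock (1.07), Nr1d1 (0.75) and Nr1d2 (0.35) were then higher in mesenchymal cells, and Tef (−0.50), Per3 (−0.58) and Nfil3 (−3.17) lower. Per2 at −0.35 (SE 0.34) did not pass here, while it did on the 6 phenobarbital arrays, and its difference of effects did not pass (0.33 with all 12 arrays, SE 0.93, limma adjusted p = 0.98, and 0.73 without water array 1, SE 0.44, adjusted p = 0.945). With medians centred as well, Nr1d2 was lost again (0.12, limma adjusted p = 0.323) and the other 6 passed, against 82.7% of all genes. On the arrays 1 member, Nfil3, did not overlap between the populations in water mice, against 84.4% of all genes, and 8 did not without water array 1, against 93.2%.

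**Figure D5:**
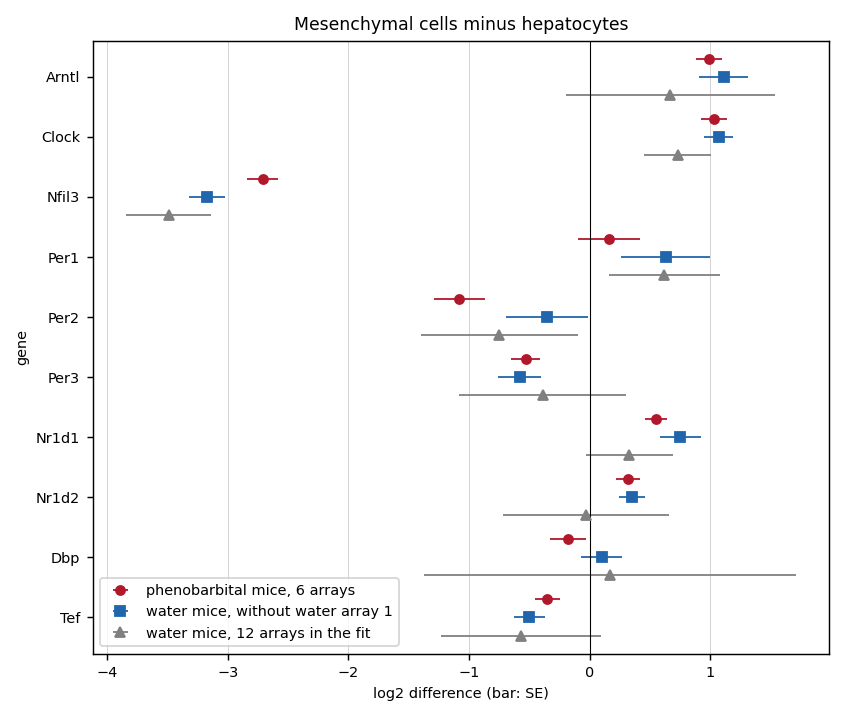
Mesenchymal minus hepatocyte log2 difference (horizontal, bars ± SE) of each gene in phenobarbital mice (circles, 6 arrays), and in water mice without water array 1 (squares) and with all 12 arrays in the fit (triangles). Nfil3 lies near −3 in all, Arntl and Clock near 1 in the circles and squares, and the triangles have the widest bars.

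The order of the 4 groups follows from these values. Arntl and Clock had their lowest mean in hepatocytes of phenobarbital mice, 5.85 and 7.87, and their highest in mesenchymal cells of water mice, 7.84 and 9.18. Neighbours overlapped in this order except hepatocytes of phenobarbital mice under mesenchymal cells of phenobarbital mice for Arntl, and mesenchymal cells of phenobarbital mice under those of water mice for Clock. Dbp, Tef, Per2 and Per3 had their highest mean in hepatocytes of phenobarbital mice, at 12.01 ± 0.13, 10.91, 8.84 and 8.67, and for Tef, Per2 and Per3 it did not overlap the next group. The rank of Tef rests on water array 1: without it hepatocytes of water mice averaged 10.97, above the 10.91 of phenobarbital mice. Nr1d1 and Nr1d2 were highest in mesenchymal cells of phenobarbital mice, at 8.16 and 11.93, and Nfil3 in hepatocytes of water mice, at 8.67. Nr1d1 turns in the same way, since mesenchymal cells of water mice averaged 8.41 without water array 1. The SD shows where water array 1 enters: for Dbp it was 0.13 in hepatocytes of phenobarbital mice and 3.19 in those of water mice (n = 3 each).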

How the data were processed

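RNA of isolated hepatocytes and mesenchymal cells was amplified with Affymetrix 3′ IVT reagents and measured on 12 arrays, per the labels' protocols. The deposited log2 values were normalized by the authors with RMA, per the submitters' processing notes; the sources used here do not give its version. RMA brings arrays to 1 distribution, which makes every difference relative to most other probe sets. Array medians ran from 7.19 to 7.44, and the sources used here give no date or batch of the arrays.

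Names came from the platform annotation: 20380 probe sets had 1 symbol, 691 several and 1555 none. The probe set with the highest mean stood for a gene. Genes were tested that exceeded the array's 40th percentile on at least 3 arrays of the fit. Linear models in limma 3.58.1 (R 4.3.3; lmFit, eBayes with an intensity trend) had a Benjamini-Hochberg threshold of 0.05 over all genes tested. Phenobarbital was compared with water on the 6 arrays of a population, and populations on all 12. The code was tested on simulated data.

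Deviations from group means were correlated between arrays of 1 number. For mesenchymal and hepatocyte water arrays r was 0.226, 0.213 and 0.178, each highest with its own number, and without clock genes 0.177, 0.185 and 0.149. For mesenchymal and hepatocyte phenobarbital arrays r was 0.0718, −0.0616 and 0.0144, and only arrays 1 were highest with their own number. Across treatments, mesenchymal phenobarbital and water arrays 3 (0.144) were also highest with their own number. So were mesenchymal phenobarbital array 2 and hepatocyte water array 2 (0.0393), and no other such pair was. Deviations within a group cancel out, so these values are not independent. The labels do not say whether a number marks shared animals, and r alone does not settle it.

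The 10 members, the gene lists and the tests were chosen with earlier results of these data known. All members are named. From each list of other genes, up to 4 with the widest range over a population's arrays were named, others where the text says so, and for likeness the 5 genes of each sign with the widest r. Other settings tried were no filter, medians centred, probe set means, no trend, a block and other arrays in the fit. Lists of drug metabolism, glucocorticoid response and temperature-sensitive genes were followed as well.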

Additional observations from a re-analysis of the deposited data

How the results depend on the processing

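The calls of phenobarbital against water on clock genes were 0 under every alternative run, with 0 members called in hepatocytes, in mesenchymal cells and for the difference of effects. In hepatocytes 4 genes were called, and 1 with all 12 arrays in the fit. Between populations in phenobarbital mice 2 members were called, 6 with a replicate block, 8 without water array 1 of both populations, and, in fits added after the data were seen, 8 on the 6 phenobarbital arrays alone and 8 on these centred on medians. Of all genes, 83% to 84.9% were called in the same fits. In water mice 2 were called, 4 with the replicate block, 7 without water array 1, 6 without it and centred, and 1 each with centring, with the mean of the probe sets and on the 6 water arrays alone. Of all genes, 80.8% to 83.8% were called in these fits, the probe set mean left aside. Members near 0 changed sign: Per1 in phenobarbital mice to −0.07 with centring, Dbp in water mice to −0.05 with centring and −0.02 with the probe set mean, and to −0.13 when water array 1 is left out and medians centred, Nr1d2 in water mice to 0.35 without water array 1, and the difference of effects of Tef to 0.08 with the probe set mean and, without water array 1, of Arntl to 0.12, Clock 0.04, Per3 −0.05, Nr1d1 0.20 and Nr1d2 0.03. Leaving out 1 array at a time, calls ran from 1 to 5 genes in hepatocytes (1 without phenobarbital array 1 or water array 2, 2 without phenobarbital array 2), 0 to 1 genes for the difference of effects (1 without mesenchymal phenobarbital array 1 or hepatocyte phenobarbital array 3), 2 to 4 members between populations in phenobarbital mice (4 without mesenchymal water array 1) and 1 to 4 in water mice (4 without hepatocyte water array 1, 1 without hepatocyte water array 2 or 3). In these fits between populations, 7226 to 7548 genes were called in phenobarbital mice and 7151 to 7467 in water mice. Values in water mice between populations ran from −0.09 to 1.87 for Arntl, −1.67 to 1.94 for Dbp, −0.02 to 0.87 for Nr1d1, −0.61 to 0.94 for Nr1d2, −1.47 to 0.13 for Per2, −1.28 to 0.31 for Per3 and −1.30 to 0.23 for Tef, and in phenobarbital mice from −0.08 to 0.47 for Per1. Differences of effects ran from −1.08 to 0.88 for Arntl, −0.54 to 0.12 for Clock, −1.49 to 2.12 for Dbp, −0.57 to 0.32 for Nr1d1, −0.93 to 0.62 for Nr1d2, −0.02 to 0.90 for Per1, −0.38 to 1.21 for Per2, −0.75 to 0.84 for Per3 and −0.95 to 0.58 for Tef. Phenobarbital against water in mesenchymal cells ran from −0.00 to 2.67 for Dbp, −0.25 to 0.64 for Nr1d1, −0.40 to 0.52 for Per1 and −0.40 to 1.2 for Per2, and in hepatocytes from −0.05 to 0.27 for Nr1d1 and −0.05 to 1.06 for Tef. Where water array 1 is left out, the shift of that array shown above enters by construction; the cause of the other changes was not tested.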

Other observations

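The other 11 genes shifted by more than 1 in the same direction on water array 1 of both populations were picked after their values were seen. Upp2, a uridine phosphorylase of liver, was lower by 2.00 on the hepatocyte array and by 3.23 on the mesenchymal array, relative to the median of the 6 arrays of the population, shifted as far as Nr1d2 (lower by 1.80 and 2.85). Serpina6, the corticosteroid carrier of plasma, was lower by 1.09 and 1.52, and the P450 genes Cyp2c37 (1.34 and 1.09) and Cyp2c54 (1.67 and 1.12), which have close paralogs, and Gys2 (1.29 and 1.64) were lower too. These are genes of hepatocytes, and on mesenchymal water array 1 the hepatocyte marker mean was also the lowest, at 9.58, against 10.03 to 11.52, with 4 of 8 markers lower by at least 1; their part in the mesenchymal values was not tested. Higher were the chemokine Cxcl1 (2.11 and 2.33), Elovl3 (2.69 and 1.31), the cytokine signalling inhibitor Socs3 (2.42 and 1.13), Nfkbiz (1.29 and 1.34), the AP-1 subunit Junb (1.26 and 1.46) and the chaperone Hsph1 (1.05 and 1.98). The mesenchymal shifts of Gys2 and Elovl3 rest on dim values, as given above.

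Lists of genes under D-box factors, glucocorticoids and body temperature were followed on the same arrays. Of 5 measured drug metabolism genes known as targets of DBP, TEF and HLF in mouse liver, 1 passed with phenobarbital in hepatocytes (Cyp2b10) and 0 of 4 tested in mesenchymal cells. Cyp2c50 lay lower on water array 1, at 11.89 in hepatocytes, against 12.33 to 13.63, and at 6.14 in mesenchymal cells, against 7.22 to 10.32, and Ces2a at 12.12, against 12.22 to 12.91, and at 6.60, against 6.93 to 8.72. Nr1i3 was at 7.98, against 8.43 to 9.57, in hepatocytes and at a dim 4.82, against 4.85 to 5.41, in mesenchymal cells. In hepatocytes Alas1 (12.09, against 11.75 to 13.02) and Cyp2b10 (7.80, against 7.72 to 14.15) lay within the range of the others. In mesenchymal cells they were at 8.58, against 8.74 to 9.12, and at 7.18, against 7.19 to 9.39. These ranges include phenobarbital arrays, and Cyp2c50 differed by 1.10 (SE 0.20, not called) between phenobarbital and water hepatocytes. Of the glucocorticoid response genes 0 of 8 tested passed in hepatocytes and 0 of 6 in mesenchymal cells in limma. Lcn2, with the widest range of the list, lay on water array 1 within the range of the others in both populations, at 10.88 in hepatocytes, against 7.15 to 11.57, and at 6.42 in mesenchymal cells, against 5.22 to 8.81. Fkbp5 was at 8.68 in hepatocytes, against 9.45 to 10.45, and at 10.36 in mesenchymal cells, against 10.48 to 11.59. Pck1 was at 13.44 in hepatocytes, against 13.55 to 13.80, and at 7.17 in mesenchymal cells, against 9.06 to 9.95, and Tat, itself a hepatocyte marker, at 13.57, against 13.42 to 13.89, and at 7.83, against 8.54 to 9.83. Over the 8 listed genes 2 in hepatocytes (1 higher, 1 lower) and 1 in mesenchymal cells (lower) were shifted by at least 1, against 1.78% and 1.75% of all genes. Of the temperature-sensitive genes 0 of 6 passed in hepatocytes and 0 of 7 in mesenchymal cells. Hsph1 was at 10.91 on water array 1 of both populations, against 9.45 to 10.03 on the other hepatocyte arrays and 8.66 to 8.96 on the other mesenchymal arrays, and Hsp90aa1 was at 12.59, against 11.68 to 12.00, and at 12.69, against 11.42 to 11.86. Hspa1a and Hspa1b, near-identical copies, did not move alike. Hspa1a was within the range in hepatocytes, at 5.76, against 5.53 to 6.54, all of them dim values under the filter. In mesenchymal cells Hspa1a was above the range, at 11.32, against 9.51 to 10.98. Hspa1b was above the range in hepatocytes, at 11.50, against 10.46 to 11.14, and within it in mesenchymal cells, at 12.25, against 11.21 to 12.61. Cirbp, the cold-inducible RNA-binding protein, picked after its values were seen, was lower in both, at 6.69, against 7.25 to 7.34, and at 6.95, against 7.84 to 8.17.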
